A study of Mus musculus with 12 samples.

Results

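Serpina3n and Serpina3g are mouse relatives of human alpha-1-antichymotrypsin, and they were to be read from the probe sets annotated to either symbol alone. The annotation supplied gave Serpina3n 1 probe set and gave Serpina3g none, so 1 of the 2 genes could be followed, among 19938 genes measured in all. Serpina3g was not analysed here. Serpina3n was selected on these array values, because its level was high in a single group, the S-set wild type. Its levels in the S set, and those of that wild type against the other groups, are therefore given as a description without a test.

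RNA abundance was measured on Affymetrix Mouse Gene 1.0 ST arrays in mouse embryonic fibroblasts (MEFs), primary cells grown out of embryos, on 12 arrays in 4 groups of 3. The groups were Rb1 S/S mutant cells, the Rb1 +/+ wild type matched to them (together the S set), Rb1 L/L mutant cells, and the Rb1 +/+ wild type matched to those (the L set). All groups had been grown in DMEM with 10% FBS up to passage 4 and then held in 0.1% FBS for 72 h to stop growth, so every value describes serum-starved cells. What the S and L alleles alter in the retinoblastoma protein is not stated in the labels. They give neither the age nor the strain of the embryos, nor whether the 3 arrays of a group came from separate embryos, so p-values reflect the spread of these samples alone, which may be technical. Values are log2 RMA values, in which RMA has corrected background, aligned the arrays with each other and drawn all probes of a set into 1 value, so a difference of 1 is a doubling of the signal.

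Serpins are protease inhibitors that present an exposed loop as bait, are cleaved by the protease, and then trap it in a dead complex. Serpina3n is secreted, inhibits granule proteases such as granzyme B and leukocyte elastase, and belongs to the acute-phase response, in which interleukin-6 and oncostatin M act through the receptor subunit gp130 and the transcription factor STAT3, with help from C/EBP factors, NF-kB and glucocorticoids. In the mouse the ancestral gene was copied many times within a cluster of serpin A genes on chromosome 12, and Serpina3n and Serpina3g are products of that expansion.

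The 250 bases before the annotated start of Serpina3n are shown because the regulators examined below act on such sequence. The next line gives the same stretch of Hpse2, the gene with the largest gap after Serpina3n between the lowest array of the S-set wild type and the highest of the other 9. Both are RefSeq sequences of the build GRCm38.p6, on the + strand at chr12:104406458-104406707 for Serpina3n and on the - strand at chr19:43388356-43388605 for Hpse2. They are written 5′ to 3′ in lower case, with capitals where the letters of a motif searched for were found.
Serpina3n: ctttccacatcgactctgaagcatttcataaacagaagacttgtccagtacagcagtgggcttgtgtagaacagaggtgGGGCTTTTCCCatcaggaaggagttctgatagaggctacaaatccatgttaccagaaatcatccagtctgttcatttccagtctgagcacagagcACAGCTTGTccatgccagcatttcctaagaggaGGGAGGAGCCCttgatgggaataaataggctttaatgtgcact
Hpse2: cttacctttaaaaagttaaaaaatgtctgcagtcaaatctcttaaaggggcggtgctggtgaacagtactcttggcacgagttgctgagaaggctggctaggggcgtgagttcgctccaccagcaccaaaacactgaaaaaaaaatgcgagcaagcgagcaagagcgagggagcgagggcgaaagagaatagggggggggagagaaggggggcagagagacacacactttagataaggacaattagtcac
The motifs searched on both strands were TTCNNNGAA (STAT), TTGCNNAA (C/EBP), ACANNNTGT (glucocorticoid receptor), GGG and CC held 5 bases apart (NF-kB), TTTCNCGC and TTTGNCGC (E2F) and TATAAA. Serpina3n held ACAGCTTGT, a glucocorticoid receptor match that begins at position -76, and 4 NF-kB matches that overlap in pairs, starting at -171 and -170 and at -43 and -42. The base just before the annotated start is counted as position -1. Hpse2 held none of these letters. Among 32851 promoter windows of 250 bases, the glucocorticoid receptor letters occurred in 5.84% and the NF-kB letters in 45.8%. The STAT letters occurred in 7.02% of windows, the C/EBP letters in 9.56%, the E2F letters in 1.73% and 1.13% and TATAAA in 12.4%, and none of them lay in the Serpina3n window. A match is a string of letters, and no binding was measured.

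Array medians lay between 6.85 and 7.01, and precision is limited by having 3 arrays a group. Array 1 of the S-set wild type was unlike the rest: its residuals about the group means had an SD of 0.325, against 0.0933 to 0.193 on the other 11 arrays. Its interquartile range, 3.10, was the narrowest of the 12, and values of that group are given per array where results turn on it. Array 1 of L/L and array 1 of the L-set wild type carried Y-linked transcripts and came from male cells, and the other 10 arrays did not. In those 10 arrays the Y-linked genes Eif2s3y, Uty and Kdm5d read 3.82 to 5.51, a level given with no target. Fibroblast markers were at a high level in every group, with Col1a1 at 12.65 in S/S, 12.53 in its wild type, 12.82 in L/L and 12.99 in the L-set wild type. Rb1 itself averaged 9.55 in S/S and 8.68 in its wild type (0.87, limma adjusted p = 0.0976), and 9.33 in L/L and 8.97 in its wild type (0.36, adjusted p = 1).

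Serpina3n was 8.42, 8.46 and 8.59 on the S/S arrays, against 11.41, 11.47 and 11.62 on the arrays of the matched wild type. It was 7.98, 8.36 and 9.02 on the L/L arrays, against 7.45, 8.08 and 8.49 in the L-set wild type. The 3 arrays of the S-set wild type thus stood alone at the top, and the other 9 arrays ran together between 7.45 and 9.02. The lowest array of that wild type lay 2.39 above the highest of the other 9, a 5.24-fold gap.

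**Figure D1:**
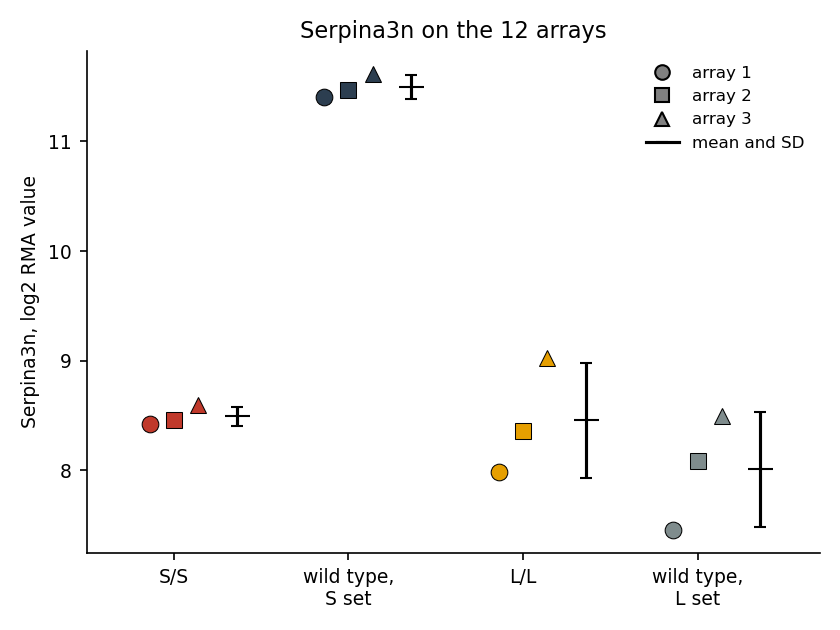
Serpina3n on each of the 12 arrays (y axis, log2 RMA value; x axis, the 4 groups; symbols, array numbers; bars, mean and SD of 3 arrays). The wild type of the S set sits between 11.41 and 11.62, and the other 9 arrays sit between 7.45 and 9.02.

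The mean in S/S was 8.49 ± 0.09 (SD, n = 3), against 11.50 ± 0.10 (SD, n = 3) in the matched wild type, a difference of -3.01, or 8.06-fold lower. Between the wild types, which have the same Rb1 genotype, the mean was 11.50 ± 0.10 in the S set, against 8.01 ± 0.52 (SD, n = 3) in the L set, a difference of 3.49, or 11.3-fold higher. Of 19938 genes Serpina3n had the largest decrease in S/S, ahead of a decrease of 1.33 for the next gene, and the largest excess of the S-set wild type over that of the L set. These comparisons share the S-set wild type and are not independent of each other. In cultures of many cells, fewer cells that make a transcript and less of it per cell cannot be told apart.

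The order of the group means was the S-set wild type at 11.50, S/S at 8.49, L/L at 8.46 and the L-set wild type at 8.01. The last 3 of these overlapped array by array. The spread differed between the sets: the 3 arrays of a group lay within 0.16 in S/S and within 0.20 in its wild type, but spanned 1.04 in L/L and 1.04 in the L-set wild type. In the L set the male array was the lowest of its group in both genotypes.

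The difference of L/L from its own wild type was not the criterion for the choice of the gene. The choice did require both groups to lie below the S-set wild type. A rise in L/L to that level was thus excluded beforehand, and the tests here hold only within that limit. Serpina3n was 8.46 ± 0.53 in L/L and 8.01 ± 0.52 in the wild type (SD, n = 3 each), a difference of 0.45 (SE 0.25, limma adjusted p = 1). The 95% interval of the difference ran from -0.0983 to 0.996, from 0.934-fold to 1.99-fold. The arrays of the groups overlapped, and an exact two-sided permutation test gave p = 0.5, where 3 arrays against 3 can give no less than 0.1. Both tests took the arrays as unpaired. By array number, L/L lay above its wild type by 0.53, 0.28 and 0.54. Over all genes 0.0401% passed in this comparison at an adjusted p under 0.05. The difference was 0.17 without array 1 of the L-set wild type and 0.16 without L/L array 3, and 0.69 without array 3 of that wild type or L/L array 1. It was 0.41 (adjusted p = 1) without the male arrays.

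The serpin A cluster was read for whether its measured genes shared the difference of Serpina3n. Of 25 cluster genes listed, 14 were measured, and 13 of them besides Serpina3n. Serpina3c, Serpina3f, Serpina3g, Serpina3h, Serpina3i, Serpina3j, Serpina3k and Serpina3m were among those not measured. Whether these copies shared the difference could therefore not be read. None of these 13 passed in S/S, where their differences ran from -0.43 to 0.39 with a median of -0.16, against -0.04 over all genes. Over all genes 0.12% passed in S/S, 0.0903% higher and 0.0301% lower.

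The nearest measured relatives of Serpina3n were at the low end of the scale. Serpina3a averaged 4.93 in S/S and 4.82 in its wild type, and over all 12 arrays it lay between 4.66 and 5.12. Serpina3b averaged 5.01 in S/S, 5.23 in its wild type, 5.03 in L/L and 5.10 in the L-set wild type. These levels fall in the range that Y-linked genes gave without a target, so the arrays show no signal of Serpina3a or Serpina3b above that range in the group means. The Serpina1 genes encode alpha-1-antitrypsin, a plasma inhibitor of elastase made by the liver, and the group means of Serpina1c (4.22 in S/S, against 4.61 in wild type) and Serpina1d (4.64 in L/L, against 4.67 in wild type) also lay in that range. Probe sets of near-identical copies such as these cannot separate the copies with certainty. Whether RNA of other Serpina3 copies binds the probes of Serpina3n was not tested.

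Serpina6, which encodes corticosteroid-binding globulin, was the other measured gene of the cluster that differed between the wild types. It was 5.74, 6.18 and 6.08 in the S-set wild type, against 5.18, 5.05 and 5.20 in that of the L set, a difference of 0.86 (SE 0.11, limma adjusted p = 0.00174). This call held in all 12 fits that left out 1 array, with a highest adjusted p of 0.0124, and without the male arrays (0.021). In that comparison 8.71% of all genes passed, 5.17% higher and 3.54% lower. Unlike Serpina3n, Serpina6 was 6.40, 6.37 and 6.39 in S/S and thus above its wild type, a difference of 0.39 that did not pass (adjusted p = 0.29).

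Neither did the genes beside the cluster follow. In the order of genes along the chromosome in RefSeq's GRCm38.p6, Gsc, Gm10000, Dicer1, Clmn and Syne3 are the next measured genes beyond Serpina3n, and their S/S differences ran from -0.38 to 0.21. Gsc encodes a homeobox factor of the early embryo and Dicer1 the nuclease that matures microRNAs. None of the 23 other genes in this stretch had all 3 arrays of the S-set wild type above the other 9 arrays, where 1.82% of all genes did. At that share 23 genes are too few for this count to set them apart from all genes.

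**Figure D2:**
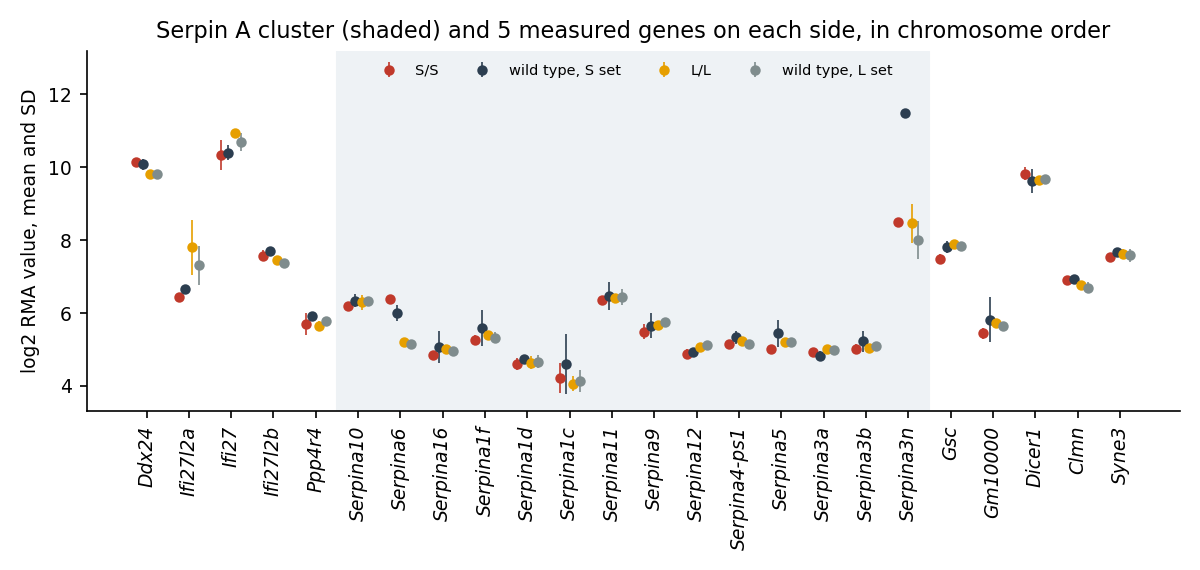
Mean and SD over 3 arrays (y axis, log2 RMA value) of the 14 measured serpin A cluster genes, shaded, and of 5 measured genes on each side, in chromosome order (x axis, not to scale). Serpina3n in the S-set wild type, at 11.50, stands apart from its own level in the other groups, and no other gene shows such a step.

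Among 20 measured serpins outside the cluster, none passed in S/S, where 0.12% of all genes did. Between the wild types 1 (5%) differed, against 8.71% of all genes. The exception, Serpinb6a, an inhibitor kept inside the cell, was lower in the S-set wild type by 0.55 (adjusted p = 0.0475), and it passed in only 1 of the 12 fits that left out an array (highest adjusted p 0.183, without array 1 of the L-set wild type). Abundant secreted and matrix-related serpins of fibroblasts lay close together in the S set. Serpinf1, which encodes pigment epithelium-derived factor, averaged 12.62 in S/S, 12.70 in its wild type, 12.52 in L/L and 12.62 in the L-set wild type. Serping1, the inhibitor of complement C1, averaged 9.97 in S/S and 10.09 in its wild type, a difference of -0.12 (adjusted p = 0.757).

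The pathway that drives Serpina3n in the acute phase was followed through its ligands, receptors, factors and products. Of 68 genes listed for this pathway 61 were measured. In S/S 0 of the 61 passed in limma, where 0.12% of all genes did. Their median difference was -0.08, against -0.04 over all genes. The count at an unadjusted p under 0.05 was 10 of the 61 (16.4%), where 10.1% of all genes lay under that p in S/S. Differences ran from -0.45 to 0.40, against -3.01 for Serpina3n.

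Of the ligands, Il6 averaged 3.85 in S/S and 3.95 in its wild type, at the bottom of the range of Y-linked genes without a target. Lif, a cytokine of the same family, differed by 0.21 (S/S higher), which did not pass (adjusted p = 0.633). Il6st, which encodes gp130, averaged 11.82 in S/S and 11.88 in wild type, a difference of -0.06 (adjusted p = 0.847), and Osmr, the oncostatin M receptor, averaged 11.15 in both (adjusted p = 0.991). Other receptor genes moved more. None of the 7 measured passed in S/S, but 4 (57.1%) had an unadjusted limma p under 0.05, against 10.1% of all genes. Of these, Il6ra (0.35), Cntfr (0.40) and Il1rap (0.32) were higher in S/S, and Lifr (-0.45) was lower.

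The factors downstream lay close together in the S set. Stat3 averaged 10.99 in S/S and 11.13 in its wild type (difference -0.14, adjusted p = 0.62). Cebpb averaged 7.85 in S/S and 7.96 in wild type, and Cebpd 7.31 in S/S and 7.38 in wild type, with adjusted p-values of 0.743 and 0.859. An array of this kind measures RNA, and the activity of these proteins was not measured.

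The other products of the acute phase that were measured, 31 of 33 listed, did not share the step of Serpina3n. C3 and Chi3l1 were not measured and could not be read. Saa3, a serum amyloid A gene expressed outside the liver, was 4.93, 5.15 and 5.14 in S/S, against 5.59, 5.29 and 5.16 in its wild type. Lcn2, the iron-siderophore binder lipocalin 2, was 5.86, 5.88 and 6.23 in S/S, against 6.55, 6.27 and 6.08 in wild type. The arrays of Lcn2 overlapped, and its difference of -0.31 did not pass (adjusted p = 0.503). Timp1, an inhibitor of matrix metalloproteinases induced in the acute phase, averaged 11.26 in S/S and 11.36 in wild type (adjusted p = 0.788), and the pentraxin gene Ptx3 averaged 9.68 in S/S and 9.73 in wild type (adjusted p = 0.924).

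Between the wild types 6 of the 61 genes passed, all 6 higher in the S set, and the median difference of the 61 was 0.11, against 0.07 over all genes. This is 9.84% of the list, where 5.17% of all genes passed as higher. At an unadjusted p under 0.05 there were 10 of 61 (16.4%), against 23.7% of all genes. Of the 6, 3 belong to the 7 genes of STAT3 feedback and targets. Socs3, the feedback inhibitor of gp130 signalling, was 8.93, 8.93 and 9.23 in the S-set wild type, against 8.02, 8.43 and 8.53 in that of the L set, a difference of 0.70 (SE 0.15, adjusted p = 0.0117). Bcl3, a nuclear partner of NF-kB and a target of STAT3, was 9.17, 8.91 and 9.36, against 7.89, 8.37 and 8.75, a difference of 0.81 (SE 0.19, adjusted p = 0.02). Pias3, an inhibitor of STAT3, was 0.58 higher (SE 0.11, adjusted p = 0.0089). These differences amount to 1.63-fold, 1.75-fold and 1.49-fold, against 11.3-fold for Serpina3n.

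Without array 1 of the L-set wild type the adjusted p was 0.0594 for Socs3, 0.0874 for Bcl3 and 0.0554 for Pias3. Without both male arrays the differences were 0.55 for Socs3 (0.0918), 0.59 for Bcl3 (0.124) and 0.49 for Pias3 (0.0821), in a fit of fewer arrays. Bcl3 also failed without array 3 of the S-set wild type or array 2 of the L-set wild type. In S/S the differences of Socs3 (-0.30, adjusted p = 0.513), Bcl3 (-0.45, 0.452) and Pias3 (0.08, 0.789) did not pass. On every array of the S-set wild type Bcl3 lay above the other 9 arrays, by a margin of 0.01, as did Lbp by 0.03. These were 2 of the 61 (3.28%), against 1.82% of all genes.

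The remaining 3 were the NF-kB subunit gene Rela (0.40, adjusted p = 0.0258), the interleukin-1 receptor antagonist gene Il1rn (0.51, 0.0372) and Lbp, which encodes the lipopolysaccharide-binding protein (0.39, 0.0461). Rela lost its call without any single array of the L-set wild type, with a highest adjusted p of 0.112, while its difference stayed at 0.35 to 0.43 over the 12 fits. Il1rn passed in 6 of 12 fits that left out an array and Lbp in 1 of 12, with highest adjusted p-values of 0.133 and 0.15, each without array 2 of the L-set wild type. In S/S against its wild type Rela (0.18, adjusted p = 0.534) and Il1rn (0.26, 0.528) were higher and Lbp (-0.27, 0.451) lower, and none passed. The wild types come from different sets, and embryo source, culture and handling of the arrays cannot be told apart between sets.

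**Figure D3:**
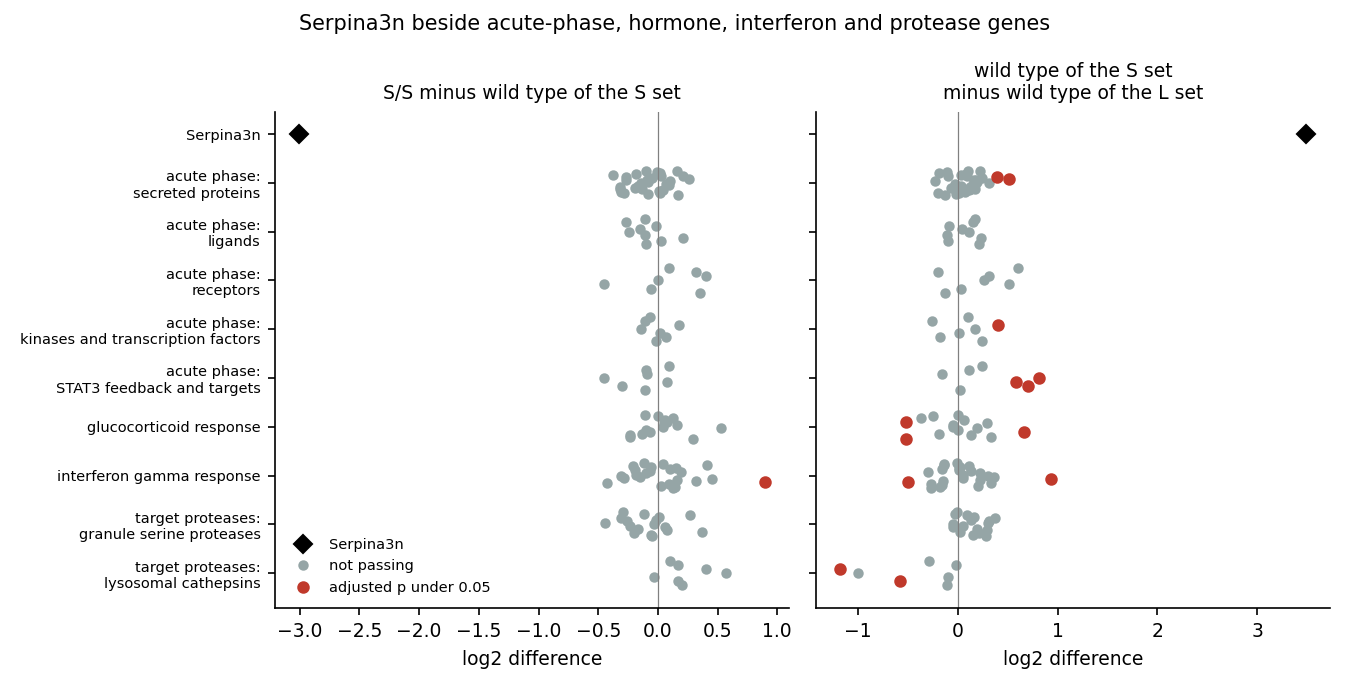
Log2 differences (x axis) of Serpina3n, as a diamond, and of the members of 9 gene lists (rows), for S/S minus its wild type on the left and for the S-set wild type minus that of the L set on the right. Serpina3n lies at -3.01 and 3.49, the next largest difference among the genes shown is that of Ctsh, -1.18, and members with an adjusted p under 0.05 are in red.

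Glucocorticoid-responsive genes were examined because glucocorticoids raise Serpina3n in several cell types. In S/S 0 of 15 passed, against 0.12% of all genes, with a median of 0.04, against -0.04 over all genes. Fkbp5, a chaperone gene that glucocorticoids induce directly, averaged 6.87 in S/S and 7.09 in its wild type (difference -0.23, adjusted p = 0.547). It was 7.56, 7.50 and 7.33 in L/L, against 6.89, 6.86 and 7.14 in the L-set wild type, a difference of 0.50 that did not pass (adjusted p = 0.46). Between the wild types 3 of the 15 passed, against 8.71% of all genes: the clock gene Per1 was higher in the S set (0.66, adjusted p = 0.00655), and the receptor gene Nr3c1 (-0.52, 0.0288) and the CDK inhibitor gene Cdkn1c (-0.52, 0.0151) were lower. Per1 passed in all 12 fits that left out an array. Nr3c1 failed without array 1 (0.136) or array 2 of the L-set wild type, and Cdkn1c without array 2 (0.0685) or array 3. Without the male arrays Per1 differed by 0.59 (0.0671), Nr3c1 by -0.40 (0.184) and Cdkn1c by -0.60 (0.052).

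Genes of the interferon gamma response were included for Serpina3g, which interferon gamma induces in immune cells. Of 25 measured, 1 passed in S/S, where 0.12% of all genes did, the GTPase gene Irgm1, which was 10.13, 10.29 and 10.07 in S/S, against 8.96, 9.46 and 9.39 in its wild type (0.90, SE 0.14, adjusted p = 0.0367). It passed in 4 of 12 fits that left out an array, with a highest adjusted p of 0.177 without S/S array 2, and at 0.0508 without the male arrays it did not. The list had a median of 0.04. The receptor gene Ifngr1 (9.98 in S/S and 9.85 in wild type, adjusted p = 0.672) and the factor gene Irf1 (8.52 in S/S and 8.49 in wild type, 0.949) lay close together. Of the 25, 2 (8%) passed between the wild types, where 8.71% of all genes did. The chemokine gene Cxcl10 was 0.93 higher in the S-set wild type than in that of the L set (adjusted p = 0.00544), and it passed in all 12 fits. Irgm1 was 0.50 lower there (adjusted p = 0.0454) and passed in 2 of the 12, with a highest adjusted p of 0.161 without array 2 of the L-set wild type. Unlike Serpina3n, Cxcl10 was higher in S/S than in its wild type, at 8.52 against 8.07, which did not pass (adjusted p = 0.39).

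The proteases that Serpina3 proteins inhibit were read as well. None of 17 genes, granule serine proteases and their companion perforin, passed in any comparison. Over all genes 0.12% passed in S/S, 0.0401% in L/L and 8.71% between the wild types. Gzmb, granzyme B, averaged 5.18 in S/S, 5.24 in its wild type, 5.08 in L/L and 5.09 in the L-set wild type, within the range of Y-linked genes without a target. Elane, neutrophil elastase, averaged 6.04 in S/S and 6.26 in its wild type (adjusted p = 0.535). Ctsg, cathepsin G, averaged 5.72 in S/S and 5.75 in its wild type (adjusted p = 0.972).

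Of 7 cathepsins of lysosomes none passed in S/S, where 0.12% of all genes did. Between the wild types 2 of the 7 passed, against 8.71% of all genes. Ctsb averaged 12.44 in S/S and 12.24 in its wild type, a difference of 0.20 (adjusted p = 0.542). Ctsl averaged 11.90 in S/S and 11.73 in its wild type (adjusted p = 0.667). Between the wild types Ctsh was 6.48, 7.39 and 7.38 in the S set, against 8.58, 8.06 and 8.15 in the L set (-1.18, SE 0.22, adjusted p = 0.00768), and Ctsl was lower by 0.58 (adjusted p = 0.0282). Ctsh passed in all 12 fits that left out an array, but not without both male arrays (0.0663). Ctsl lost its call without any single array of the L-set wild type (highest adjusted p 0.119).

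Markers of other cells were set beside Serpina3n. Macrophage markers differed in the opposite direction from Serpina3n in the S set: all 11 had a higher mean in S/S, by a median of 0.74. None passed, where 0.12% of all genes did. Cd68, a lysosomal protein gene of macrophages, averaged 10.53 in S/S and 9.31 in its wild type (1.22, adjusted p = 0.512), and Aif1 averaged 5.99 in both. Their mean level per array was 8.48 to 8.54 in S/S, against 7.65 to 7.88 in its wild type. It was 6.86, 8.44 and 8.29 on L/L arrays 1, 2 and 3, against 7.25, 8.05 and 9.20 on those of the L-set wild type. In every group the array lowest in these markers, array 1, was also the lowest in Serpina3n, and in the L set it was male. Both had the same order over the 3 arrays in S/S, in its wild type and in the L-set wild type, but not in L/L. The part of these cells in the level of Serpina3n was not tested.

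Hepatocytes are the main source of acute-phase proteins in the animal, and their defining marker Alb averaged 4.72 in S/S, 4.91 in its wild type, 4.78 in L/L and 4.75 in the L-set wild type, within the range of Y-linked genes without a target. The hepatocyte list had a mean level of 5.20 to 5.44 in S/S, against 5.33 to 5.78 in its wild type. The list of T and NK cell markers read 5.26 to 5.40 in S/S, against 5.22 to 5.84 in its wild type. None of its 7 genes passed in any comparison, where 0.12% of all genes passed in S/S, 0.0401% in L/L and 8.71% between the wild types. All 7 hepatocyte and all 7 T and NK cell markers had a lower mean in S/S than in its wild type. All of them had a higher mean in the S-set wild type than in that of the L set. Array 1 of the S-set wild type, which stood apart, gave the highest list means of that group, 5.78 and 5.84. The other arrays of that group read 5.33 and 5.35 for the hepatocyte list, against 5.20 to 5.44 in S/S. For the T and NK cell list they read 5.22 and 5.32, against 5.26 to 5.40 in S/S.

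Astroglia strongly express Serpina3n when injured, and all 6 astroglial markers had a lower mean in S/S, by a median of 0.31 on the log2 scale. None passed, where 0.12% of all genes did. A lower mean in S/S was also seen in the hepatocyte and T and NK cell lists and in 5 of 6 epithelial markers. Gfap, the defining filament gene, was 6.50, 6.34 and 6.48 in S/S, against 7.50, 6.62 and 6.56 in its wild type, so array 1, which stood apart, gave most of the difference. Between the wild types 2 of the 6 passed, where 8.71% of all genes did, Gfap (0.67, adjusted p = 0.0486) and the water channel gene Aqp4 (0.53, 0.0155). Gfap passed in 3 of 12 fits that left out an array, and Aqp4 failed without array 1 of the L-set wild type (0.0858). The mean level of the list was 6.68 to 6.73 in S/S, against 6.92 to 7.06 in its wild type, and 6.67 to 6.72 in L/L, against 6.60 to 6.69 in the L-set wild type. Whether such cells contributed was not tested.

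The remaining marker lists, adipocyte, endothelial and epithelial with 6 genes each, had no gene that passed in S/S or L/L. Over all genes 0.12% passed in S/S and 0.0401% in L/L. The largest difference in these lists was that of the endothelial sialomucin gene Emcn, which was 8.50, 8.21 and 8.48 in S/S, against 6.70, 6.64 and 7.01 in its wild type (1.62, adjusted p = 0.197). It was 9.05, 8.20 and 7.82 in L/L, against 9.06, 8.19 and 6.98 in the L-set wild type, and the difference between the wild types, -1.29, did not pass (0.0659). The endothelial list did not share the rise of Emcn in S/S: 2 of its 6 markers were higher and 4 lower there, with a median of -0.09. In the comparison of the wild types 1 of the 18 passed, where 8.71% of all genes did: the angiopoietin receptor gene Tek was 0.58 lower in the S set (adjusted p = 0.0134), a call lost without array 3 of the L-set wild type (0.0534). Of 10 fibroblast markers none passed in S/S or L/L, where 0.12% and 0.0401% of all genes did. Between the wild types 2 of the 10 passed, where 8.71% of all genes did. The surface antigen gene Thy1 was 0.49 higher (adjusted p = 0.0201) and the proteoglycan gene Dcn 0.35 lower (0.0452) in the S set. Without array 1 of the L-set wild type Thy1 lost its call (0.104), and Dcn passed in 3 of 12 fits that left out an array. The part of these differences in the level of Serpina3n was not tested.

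The genes that followed Serpina3n were sought by its own pattern, all 3 arrays of the S-set wild type above the other 9 arrays. A total of 363 genes, 1.82% of those measured, met it, and 235 genes (1.18%) met the reverse. The same count was 395 (1.98%) for S/S above the others, 450 (2.26%) for L/L and 130 (0.652%) for the L-set wild type, so the S-set wild type was not the group with the most such genes. The reverse was met by 310 genes (1.55%) for S/S, 235 (1.18%) for L/L and 295 (1.48%) for the L-set wild type. Among the 363 the median gap was 0.069, and Serpina3n was the only gene with a gap of at least 1.

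The next gene, Hpse2, which encodes an inactive relative of heparanase, was 7.72, 7.79 and 7.73 in S/S, against 8.88, 9.19 and 9.02 in its wild type. It was 7.52, 7.17 and 7.31 in L/L, against 6.73, 7.87 and 8.08 in the L-set wild type. Its gap was 0.81. Hoxa13, a homeobox gene of the distal limb and genital tubercle, followed with a gap of 0.58: it was 7.29, 7.36 and 7.30 in S/S, against 8.34, 8.18 and 8.18 in wild type.

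The other 8 of the 10 nearest genes had gaps of 0.38 to 0.54. They were the orphan receptor gene Mrgprf, the melanocortin 4 receptor gene Mc4r, the nucleotidase gene Entpd4, the limb patterning gene Hoxd11, the homeobox gene Meox2 of somites and limb muscle, the microfibril gene Mfap5, and Pcp4l1 and Frmpd3. Over these 10 genes the S/S differences ran from -1.28 to -0.55 and the differences between the wild types from 0.74 to 1.47. They were chosen for these differences, which therefore carry no test. In L/L against its own wild type 0 of the 10 passed in limma, where 0.0401% of all genes did. Differences there were -0.50 to 0.31 (adjusted p = 1 for each). At an unadjusted p under 0.05 there were 2, Hoxa13 and Mc4r, where 3.27% of all genes lay under that p. The choice required low values on the arrays of both L-set groups. It thus limited how far L/L could rise, and the count is not independent of it. Without array 1 of the S-set wild type 898 genes met the pattern. Leaving out an array can only keep or enlarge a gap, so such a rise says nothing of stability. Of the 10 genes, 3 were among the 10 largest gaps there, where Serpina3n had 2.45 and the next gene 1.06.

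In the opposite direction the largest gaps, 0.41 to 0.50, were those of Pmaip1, Rpl34, Anks1b, Snord16a and Olfr1316. Pmaip1, the p53-responsive apoptosis gene Noxa, was 8.29, 8.38 and 8.30 in S/S, against 7.52, 7.56 and 7.64 in its wild type. Rpl34 encodes a ribosomal protein and Snord16a a small nucleolar RNA. In L/L against its wild type, whose arrays also took part in the choice, none of these 5 passed in limma, where 0.0401% of all genes did. Anks1b had the lowest adjusted p, 0.467.

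**Figure D4:**
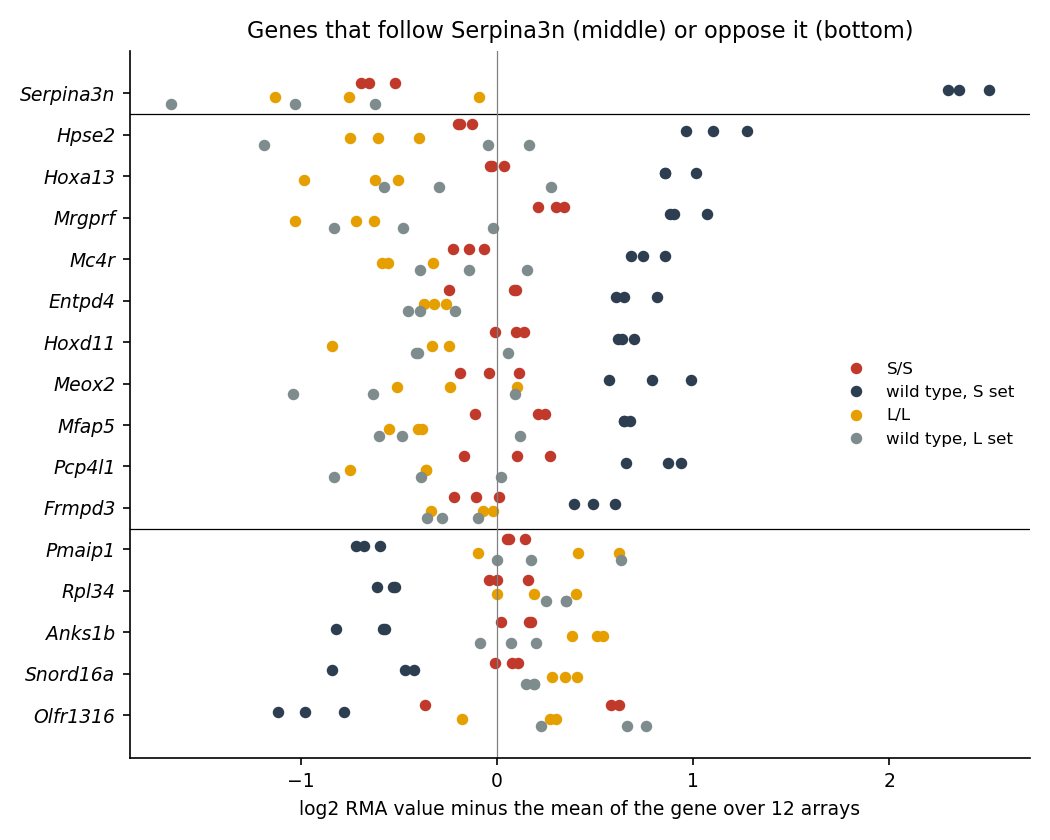
Values of Serpina3n (top), the 10 genes with the largest gap of the S-set wild type above the other 9 arrays (middle) and the 5 with the largest gap below (bottom), each minus the gene's mean over 12 arrays (x axis, log2; points, single arrays; colours, groups). The genes were chosen for this separation, and the gap of Serpina3n, 2.39, exceeds the next among the genes measured, 0.81.

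Likeness was also measured by Pearson correlation over the 12 arrays, among 3328 genes whose highest and lowest arrays differed by at least 1. The highest values were those of Entpd4 (r = 0.946), Jcad (0.934), the hindlimb transcription factor gene Tbx4 (0.921), Mc4r (0.913) and Ccdc115 (0.907). Serpina3n falls into 2 clusters of arrays, so these values mostly restate the separation of the S-set wild type. Over the 9 arrays outside that group the order was different. It was led by Pcna, the sliding clamp of DNA replication (r = 0.909), Stard8 (0.902), Chn2 (0.895), Serinc2 (0.873) and the adenosine deaminase gene Ada (0.867). Of these, Pcna, Chn2 and Serinc2 did not follow Serpina3n upward in the S-set wild type: Pcna was 10.96, 11.08 and 11.08 in S/S, against 10.96, 11.01 and 11.26 in its wild type. The 9 arrays share their groups and the male arrays, and these correlations are a description.

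Promoter windows were available for 6 of the 10 genes that followed Serpina3n. The NF-kB letters occurred in 5 of these 6, the C/EBP letters and TATAAA in 1 each, and the STAT, glucocorticoid receptor and E2F letters in none. A gene was counted when any of its windows held the letters. The share of 45.8% for the NF-kB letters is of single windows, 32851 windows of 27025 genes, so the count of genes cannot be set against it. The genes were chosen from these data, and enrichment was not tested.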

How the data were processed

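The deposited values are log2 expression values of 35556 probe sets on 12 arrays, which the authors obtained by RMA; Partek is the tool named in the submitters' processing notes, with no version. Platform annotation gave 21789 probe sets 1 symbol, 1621 several and 12146 none. Each gene was read from its probe set with the highest mean, which left 19938 genes. A model of 4 group means was fitted to all 12 arrays with limma 3.58.1 in R 4.3.3, and p-values were adjusted by Benjamini-Hochberg over all genes, with 0.05 as the threshold. The pattern of Serpina3n was measured as the lowest array of the S-set wild type minus the highest of the other 9. Named genes were Serpina3n, the 10 largest such gaps, the 5 largest reversed gaps, the 5 highest correlations over 12 and over 9 arrays among genes with a range of at least 1, called members of the lists, and members that define a role. Promoters and gene order came from RefSeq, GRCm38.p6. The members and lists were chosen with earlier results of these data known. The fit was tested on simulated data.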

Additional observations from a re-analysis of the deposited data

How the results depend on the processing

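Serpina3n kept its direction in all alternatives run, at -3.06 to -2.95 for S/S minus its wild type over 22, and at 3.22 to 3.73 between the wild types over 20. In L/L it stayed between 0.16 and 0.69 over 22 alternatives, none of which passed (adjusted p 0.255 to 1). Counts over all genes moved more. The 24 genes called in S/S were 12 with each array centred on its median, 44 with each set fitted alone, 37 without the male arrays, 415 with array quality weights, and 2 to 38 when 1 array was left out. The 8 called in L/L were 5 with each set fitted alone, 2 without the male arrays, 336 with weights, 2 with every probe set tested, and 2 to 26 when 1 array was left out. The 1736 called between the wild types were 2686 after quantile normalization, 304 without the male arrays, 6520 with weights, and 525 to 2078 when 1 array was left out. The lowest, 525, was without array 1 of the L-set wild type. The 363 genes with every array of the S-set wild type on top were 702 after quantile normalization and 373 to 898 when 1 array was left out, which can only keep or raise this count and says nothing of stability. Without both arrays numbered 1 of the S set, an alternative chosen after seeing the data, the 4 counts were 3, 42, 2870 and 1057. Their causes were not tested. With the replicate number as a block, S/S had 37 calls and L/L 5, and Serpina3n in L/L was 0.45 (adjusted p = 0.255). Same-numbered arrays correlated at -0.122 to 0.601 in their deviations from the group means, over 0.1 in 4 of 6 pairs. Arrays of different number ran from -0.599 (S/S array 2 with wild-type array 1) to 0.587 (S/S array 2 with wild-type array 3). These values do not settle whether equal numbers are pairs, and the sample titles do not state it. The main fit was therefore unpaired. The block was not run between the wild types, whose numbers belong to different sets. Alternatives for Serpina3g, and for other probe sets of Serpina3n, were not run, since the annotation gave none.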

Other observations

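Among the 12146 probe sets with no symbol in the annotation, 92 (0.757%) had all 3 arrays of the S-set wild type above the other 9 arrays and 265 (2.18%) had them below. The sizes of the gaps below were not read. Of the gaps above, the largest was 1.72, over the 0.81 of Hpse2, and 1 probe set exceeded 0.5. No gene is given for it here.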
